A study of Mus musculus with 16 samples.

Results

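The MHC class II genes and Ciita are the 10 genes H2-Aa, H2-Ab1, H2-Eb1, Cd74, H2-DMa, H2-DMb1, H2-DMb2, H2-Oa, H2-Ob and Ciita, taken by symbol from a table of 24421 gene symbols. Read counts were measured in macrophages sorted as F4/80-positive cells from mouse muscle, in 4 groups with 4 libraries each. The groups were Glud1-deficient (KO) CTX-injected muscle, WT CTX-injected muscle, KO normal muscle and WT normal muscle, with the injured muscle taken when damage was greatest. CTX is the labels' own abbreviation for the injected agent. The strain, age and sex of the mice, the part of Glud1 that was deleted and what drove the deletion are not given in the sources used here. Since no label states that each library is a separate mouse, every p here reflects library-to-library spread, part of which may be technical. In CTX-injected muscle all of it may be. Each normal group held libraries of both sexes by their Xist reads, given below, so its spread was not technical alone.

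Class II molecules present peptides from engulfed proteins to CD4+ T cells. An alpha and a beta chain assemble around the invariant chain (Cd74), whose remnant is exchanged for a peptide by the DM heterodimer, and the DO heterodimer holds DM back. Transcription of these genes depends on the coactivator CIITA, which has no DNA-binding activity of its own and docks on factors that sit on paired X and Y boxes upstream of each gene. Dendritic cells and B cells carry class II constitutively, and macrophages raise it under interferon-gamma.

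On the mm10 genome (GENCODE M21 annotation), 8 of the members lay within 224 kb of chromosome 17. In chromosomal order these were H2-Oa (34092340 to 34095234), H2-DMa (34119541 to 34139101), H2-DMb2 (34143307 to 34151555), H2-DMb1 (34153072 to 34160230), H2-Ob (34238903 to 34254414), H2-Ab1 (34257689 to 34269419), H2-Aa (34282744 to 34287823, the minus strand) and H2-Eb1 (34305867 to 34316674). All of these except H2-Aa lay on the plus strand.

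The 150 bases before the RefSeq transcript start (build GRCm38.p6) are shown for 4 members, because the X and Y cores are where the shared coactivator acts. Capitals mark matches to an X core, searched as ACNGATG, and a Y core, searched as GATTGG, on both strands, and these letters do not overlap. The stretches are chr17:34305717-34305866 (H2-Eb1, plus strand), chr17:34153041-34153190 (H2-DMb1, plus strand), chr17:34145099-34145248 (H2-DMb2, plus strand) and chr17:34287824-34287973 (H2-Aa, minus strand).
H2-Eb1: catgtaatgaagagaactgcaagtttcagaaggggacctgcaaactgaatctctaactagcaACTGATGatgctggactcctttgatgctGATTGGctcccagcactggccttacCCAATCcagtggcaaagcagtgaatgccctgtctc
H2-DMb1: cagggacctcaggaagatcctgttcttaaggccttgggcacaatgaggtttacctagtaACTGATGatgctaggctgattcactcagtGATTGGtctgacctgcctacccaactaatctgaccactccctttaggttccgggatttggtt
H2-DMb2: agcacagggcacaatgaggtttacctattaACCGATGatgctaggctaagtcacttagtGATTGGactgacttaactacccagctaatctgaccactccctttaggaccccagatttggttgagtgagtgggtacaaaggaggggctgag
H2-Aa: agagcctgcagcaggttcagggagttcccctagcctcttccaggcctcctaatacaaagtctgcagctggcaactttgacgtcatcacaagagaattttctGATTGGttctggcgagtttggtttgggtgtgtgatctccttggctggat

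H2-Eb1, H2-DMb1 and H2-DMb2 each had an X core followed by a Y core on the gene's own strand, with 21, 22 and 22 bases between them. In GENCODE M21 the genes H2-DMb1 and H2-DMb2 start before these RefSeq starts, so the H2-DMb2 stretch and most of the H2-DMb1 stretch lie inside the annotated gene. The X core began 88 bases before the start in H2-Eb1, 91 in H2-DMb1 and 120 in H2-DMb2. H2-Aa had a Y core 49 bases before its start and, outside the stretch shown, an X core match on the other strand 232 bases before it. H2-Oa had both cores (137 and 44 bases before the start) but farther apart than 30 bases, and H2-Ob had a Y core only (58 bases before the start). Of the 2 RefSeq starts of H2-DMa, 1 had no match and 1 had a Y core 199 bases before it. Among 32851 RefSeq windows searched over the same 250 bases, 8.31% held an X core, 14.6% a Y core and 1.18% both. An X core with a Y core 10 to 30 bases behind it was present in 8 windows (0.0244%), which were those of the 3 members, H2-Eb2 of the same region, BC051142, Bpifb4, Scaper and Pfkfb1. A match of letters is a description of these windows and does not show that a factor was bound. Boxes whose letters differ from the searched cores would be missed, so the lack of a match does not show that a box is absent. H2-Ab1, Ciita and Cd74 were not searched. Ciita lay on chromosome 16 (10480059 to 10528418) and Cd74 on chromosome 18 (60803848 to 60812652), both on the plus strand.

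Library totals ran from 17051892 to 23097420 counts, and 13649 genes passed edgeR's filter on low counts, all 10 members among them. Levels are given as CPM, the read count relative to a library total scaled by edgeR's TMM factors, which were 0.758 to 0.866 in CTX-injected and 1.13 to 1.34 in normal muscle. Libraries of 1 group differed by more than sampling noise in every pair, so none was counted as a duplicate. Glud1 counts over the whole gene overlapped between the genotypes (327 to 351 CPM in KO and 348 to 391 CPM in WT CTX-injected muscle, 209.8 to 272 CPM in KO and 219 to 292 CPM in WT normal muscle), so they did not check the genotype labels. KO normal library 5 and WT normal libraries 5 and 6 carried Xist at 104 to 258 CPM and so came from female mice, and the other 13 libraries did not. The macrophage markers Adgre1, which encodes F4/80, Csf1r, Cd68 and Lyz2 had reads in every library.

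Macrophages of CTX-injected muscle had far less class II RNA than those of normal muscle, in both genotypes. The 10 members together took 0.187% to 0.294% of all counts in KO CTX-injected muscle, against 2.69% to 3.76% in KO normal muscle. In WT they took 0.200% to 0.300% in CTX-injected muscle, against 2.70% to 3.52% in normal muscle. By edgeR's quasi-likelihood test with a Benjamini-Hochberg threshold of 0.05, 10 of 10 members were lower with injury in KO, where 40.2% of all tested genes were called lower. In WT, 10 of 10 were lower as well, where 39.4% of all tested genes were. H2-Oa, near 0 in the injured libraries, passed the low-count filter only through the normal libraries. It could thus hardly have been called higher with injury. The median log2 fold change of the members was -3.27 in KO and -3.24 in WT, beside -0.16 and -0.15 over all tested genes. A fall of at least 8-fold was met by 7 members in KO and 6 in WT, against 9.53% and 8.29% of all tested genes. The CTX-injected and normal libraries did not overlap for any member in either genotype, as was the case in the lower direction for 35.5% of tested genes in KO and 34.9% in WT. Scaling by library totals alone moved the median of all genes by -0.61 in KO and -0.62 in WT. The members' log2 changes then ran from -2.88 to -6.71 in KO and from -3.05 to -5.52 in WT, and 61.5% and 61.2% of tested genes were called lower. In bulk samples, fewer cells that express a gene and less of its RNA per cell cannot be told apart.

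**Figure D1:**
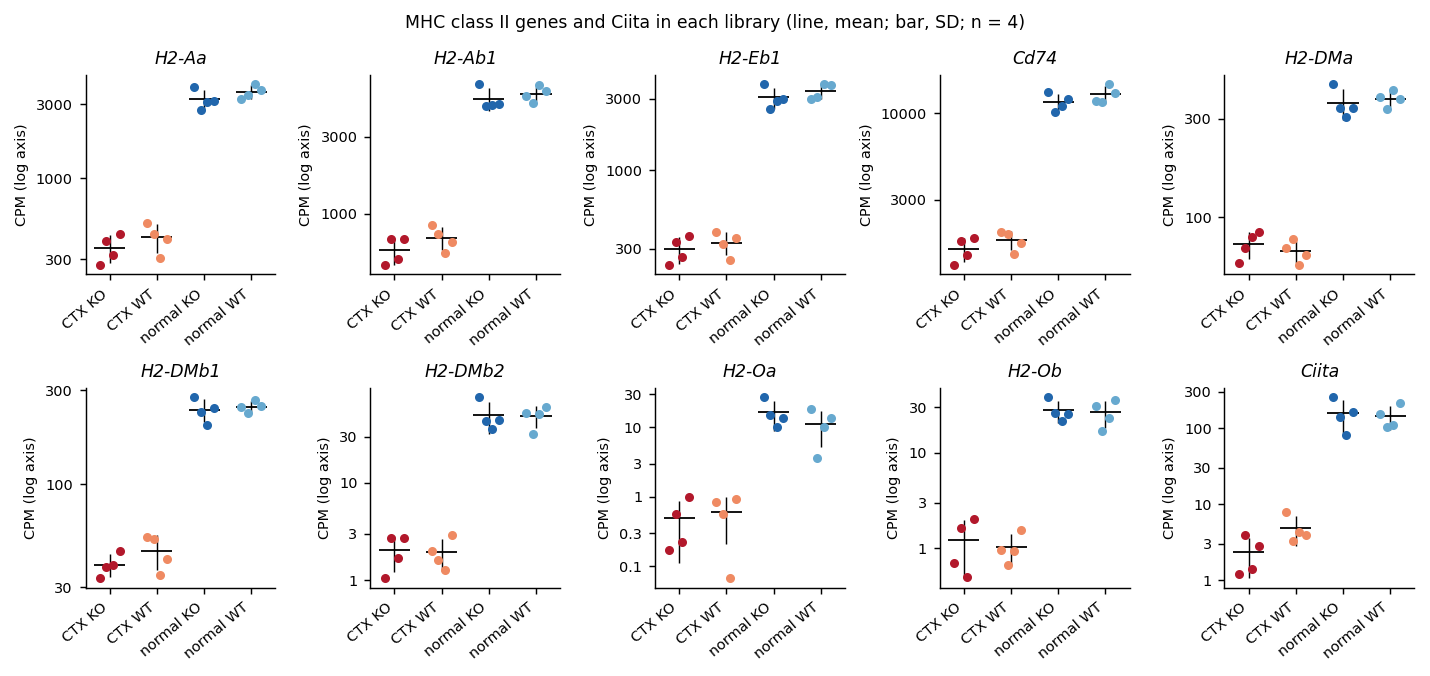
Level of each of the 10 members in each library (points; CPM, log axis), with the mean (line) and SD (bar) of the 4 libraries of a group. CTX-injected KO and WT libraries lie below the normal KO and WT libraries for every member, and Ciita, H2-DMb2, H2-Oa and H2-Ob show the widest gaps.

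Ciita, the coactivator, had the largest fitted fall of the members in both genotypes, with 95% intervals that overlapped those of H2-DMb2, H2-Oa and H2-Ob in each. KO CTX libraries 1 to 4 had 1.21, 3.96, 1.40 and 2.81 CPM, against 257, 141, 80.1 and 163 CPM in KO normal libraries 1, 2, 3 and 5. WT CTX libraries 1 to 4 had 7.93, 3.29, 4.32 and 3.96 CPM, against 153, 103, 111 and 212 CPM in WT normal libraries 2, 3, 5 and 6. The highest injured library, WT CTX library 1, was thus below the lowest normal library by a wide margin. The log2 fold change was -6.09 (SE 0.46, 68.0-fold, edgeR adjusted p = 1.57e-08) in KO and -4.89 (SE 0.43, 29.6-fold, edgeR adjusted p = 6.68e-08) in WT. Behind the injured values stood 21 to 70 raw counts per library in KO and 59 to 140 in WT. By rank of mean CPM among the tested genes, Ciita was number 9760 in KO and 8759 in WT CTX-injected muscle, against 869 in KO and 1088 in WT normal muscle. Ciita shares 329 exonic bases with Dexi on the opposite strand, and reads of the 2 genes there could not be told apart because the kit keeps no strand. Dexi itself was lower with injury, by a log2 change of -1.10 in KO and -0.92 in WT.

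The classical chains fell together. H2-Ab1 encodes the beta chain of the I-A molecule. KO CTX libraries 1 to 4 had 479.9, 694, 521 and 695 CPM of H2-Ab1, against 6415, 4632, 4757 and 4811 CPM in KO normal libraries 1, 2, 3 and 5. WT CTX libraries 1 to 4 had 850.2, 749.6, 573 and 670.4 CPM of it, against 5375, 4874, 6268 and 5747 CPM in WT normal libraries 2, 3, 5 and 6. All 8 injured libraries were below all 8 normal ones, and KO normal library 1 was the highest of the 16. The log2 fold change of H2-Ab1 was -3.11 (SE 0.18, 8.63-fold, edgeR adjusted p = 1.34e-09) in KO and -2.97 (SE 0.18, 7.83-fold, edgeR adjusted p = 1.59e-09) in WT.

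H2-Aa, the I-A alpha chain, averaged 355 ± 73.3 CPM in KO CTX-injected and 3236 ± 485 CPM in KO normal muscle (SD, n = 4 each). In WT it averaged 416 ± 86.2 CPM in CTX-injected and 3623 ± 370 CPM in normal muscle. Its log2 fold change was -3.19 in KO and -3.12 in WT (SE 0.19 each). H2-Eb1, the beta chain of the I-E molecule, averaged 298 ± 59.9 CPM in KO CTX-injected and 3051 ± 487 CPM in KO normal muscle. In WT it averaged 329 ± 57.3 CPM in CTX-injected muscle, against 3379 ± 394 CPM in normal muscle. The fall was 10.2-fold in KO and 10.3-fold in WT (log2 -3.36 in each, SE 0.19 in each, edgeR adjusted p at most 9.87e-10). Within libraries, the proportion of the I-A alpha to the beta gene overlapped between injured and normal muscle. H2-Aa had 0.564 to 0.630 counts per H2-Ab1 count in KO CTX-injected against 0.596 to 0.657 in KO normal muscle. In WT it had 0.536 to 0.608 in CTX-injected against 0.601 to 0.706 in normal muscle. H2-Eb1 had 0.481 to 0.521 counts per H2-Ab1 count in KO CTX-injected muscle, below the 0.556 to 0.621 of KO normal muscle. The WT values were 0.433 to 0.528 in CTX-injected and 0.556 to 0.646 in normal muscle. These within-library ratios need no scaling between libraries and are given as descriptions, with no test.

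Cd74, the invariant chain that guides class II through the cell, was the most abundant member everywhere. KO CTX libraries 1 to 4 had 1202, 1675, 1390.2 and 1763 CPM, against 13492, 10242, 11085 and 12295 CPM in KO normal libraries 1, 2, 3 and 5. WT CTX libraries 1 to 4 had 1922, 1867, 1407 and 1647 CPM, while WT normal libraries spanned 11677 to 15173 CPM. It ranked number 89 by mean CPM in KO and 84 in WT CTX-injected muscle, and number 1 of all tested genes in KO and in WT normal muscle. The log2 fold change was -2.97 (SE 0.17, 7.81-fold) in KO and -2.93 (SE 0.17, 7.62-fold) in WT, with edgeR adjusted p of 1.22e-09 and 1.18e-09. Cd74 had 1.18 to 1.26 counts per summed count of the 3 classical chain genes in KO CTX-injected muscle, against 0.960 to 1.12 in KO normal muscle. The same ratio was 1.10 to 1.24 in WT CTX-injected muscle, against 1.02 to 1.08 in WT normal muscle, so that the injured libraries had slightly more Cd74 per chain count in both genotypes.

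**Figure D2:**
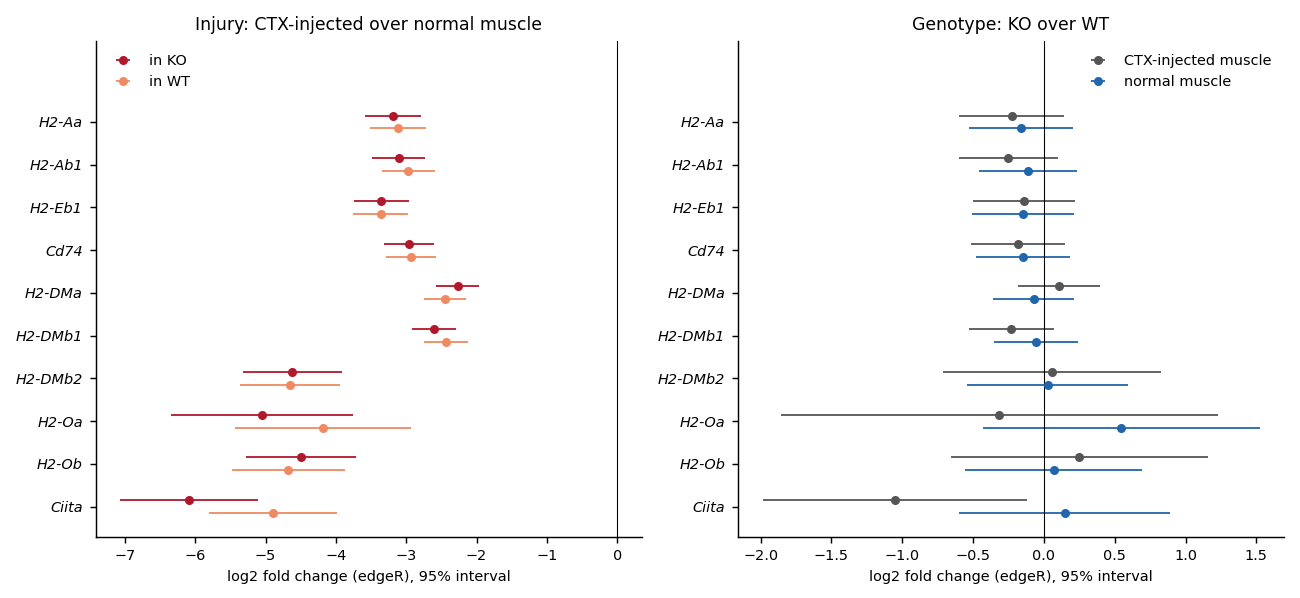
Log2 fold changes of the members from edgeR with 95% intervals, for CTX-injected over normal muscle in KO and in WT (left) and for KO over WT in CTX-injected and in normal muscle (right). The injury values run from -2.27 to -6.09 in KO and from -2.43 to -4.89 in WT, while all genotype intervals include 0 except that of Ciita in CTX-injected muscle, which was not called after adjustment.

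Of the peptide exchange factor DM, the alpha chain gene and 1 beta chain gene fell least of all members. H2-DMa had 59.8, 70.8, 80.3 and 84.3 CPM in KO CTX libraries 1 to 4, against 443, 338, 304 and 339 CPM in KO normal libraries 1, 2, 3 and 5. It averaged 68.5 ± 8.57 CPM in WT CTX-injected and 374 ± 32.4 CPM in WT normal muscle. Its fall was 4.82-fold in KO (log2 -2.27, SE 0.14) and 5.46-fold in WT (log2 -2.45, SE 0.14), with edgeR adjusted p of 2.64e-09 and 1.42e-09. H2-DMb1, a DM beta chain gene, averaged 39.1 ± 5.27 CPM in KO CTX-injected and 239 ± 31.8 CPM in KO normal muscle, and 45.9 ± 9.26 CPM in WT CTX-injected and 248 ± 15.6 CPM in WT normal muscle. It fell 6.10-fold in KO and 5.40-fold in WT (log2 -2.61 and -2.43, SE 0.15 each). H2-DMa shares 360 exonic bases with Brd2 on the opposite strand, and Brd2 had a log2 change of 0.58 in KO and 0.55 in WT, which turned to -0.03 and -0.06 when libraries were scaled by their totals alone. What share of H2-DMa counts those bases hold was not tested.

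H2-DMb2, the neighbouring copy of the DM beta gene, fell much further than H2-DMb1. KO CTX libraries 1 to 4 had 1.04, 2.72, 1.68 and 2.70 CPM of it, against 76.7, 43.7, 35.7 and 44.8 CPM in KO normal libraries 1, 2, 3 and 5. WT CTX libraries 1 to 4 had 1.98, 1.62, 1.26 and 2.91 CPM, against 53.0, 32.2, 51.2 and 60.9 CPM in WT normal libraries 2, 3, 5 and 6. The log2 fold change was -4.62 (SE 0.33) in KO and -4.65 (SE 0.34) in WT. The 95% intervals ran from -5.33 to -3.91 in KO and from -5.36 to -3.94 in WT, and those of H2-DMb1 from -2.92 to -2.29 in KO and from -2.75 to -2.12 in WT. Counted against each other, H2-DMb2 had 3.11 to 7.10 counts per 100 H2-DMb1 counts in KO CTX-injected muscle, against 17.8 to 27.6 in KO normal muscle. In WT the ratio was 3.05 to 6.96 in CTX-injected muscle, against 14.0 to 24.3 in normal muscle. The upstream stretches shown above carry an X and a Y core at the same spacing in both genes. The 2 genes are close copies, and how the authors' counting treated reads that map to both is not stated in the labels, so the split between them is uncertain.

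The genes of DO, the DM inhibitor known mainly from B cells, were the members with the fewest counts. H2-Ob, its beta chain, had 0.691, 1.64, 0.503 and 2.03 CPM in KO CTX libraries 1 to 4, against 38.3, 26.3, 21.3 and 25.1 CPM in KO normal libraries 1, 2, 3 and 5. It had 0.963, 0.669, 0.930 and 1.54 CPM in WT CTX libraries 1 to 4, against 30.9, 16.8, 22.9 and 35.2 CPM in WT normal libraries 2, 3, 5 and 6. No library lay between the injured and the normal ranges. Its fall was 22.6-fold in KO (log2 -4.50, SE 0.37) and 25.6-fold in WT (log2 -4.68, SE 0.38), with edgeR adjusted p of 3.77e-08 and 3.04e-08. H2-Oa, the alpha chain, had 3 to 19 raw counts per library in KO CTX-injected muscle, against 235 to 655 in KO normal muscle. It had 1 to 17 in WT CTX-injected muscle, against 84 to 465 in WT normal muscle. Its log2 fold change was -5.05 (SE 0.61, edgeR adjusted p = 2.10e-06) in KO and -4.19 (SE 0.59, edgeR adjusted p = 1.09e-05) in WT. These are the least precise folds of the set, and without KO CTX library 4 the KO value was -5.66. H2-Oa shares 321 exonic bases with BC051537 on the opposite strand.

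Set against DM, DO transcripts were scarcer after injury. H2-Oa and H2-Ob together had 0.602 to 2.26 counts per 100 counts of the 3 DM genes in KO CTX-injected muscle, against 5.81 to 8.25 in KO normal muscle. The WT values were 0.920 to 2.24 in CTX-injected muscle, against 3.43 to 7.22 in normal muscle. Ciita had 1.23 to 2.79 counts per 1000 counts of the classical chains in KO CTX-injected muscle, against 7.43 to 18.3 in KO normal muscle. In WT it had 2.18 to 4.53 in CTX-injected muscle, against 7.90 to 16.1 in normal muscle. In the other direction, H2-DMa had 49.8 to 72.8 counts per 1000 chain counts in KO CTX-injected muscle, against 28.2 to 33.9 in KO normal muscle. In WT it had 40.7 to 52.2 in CTX-injected muscle, against 28.2 to 32.9 in normal muscle. The members thus fell into those with smaller falls (H2-DMa, H2-DMb1), the chains and Cd74, and those with larger falls (H2-DMb2, H2-Oa, H2-Ob, Ciita), an ordering that was chosen after the values were seen and not tested.

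**Figure D3:**
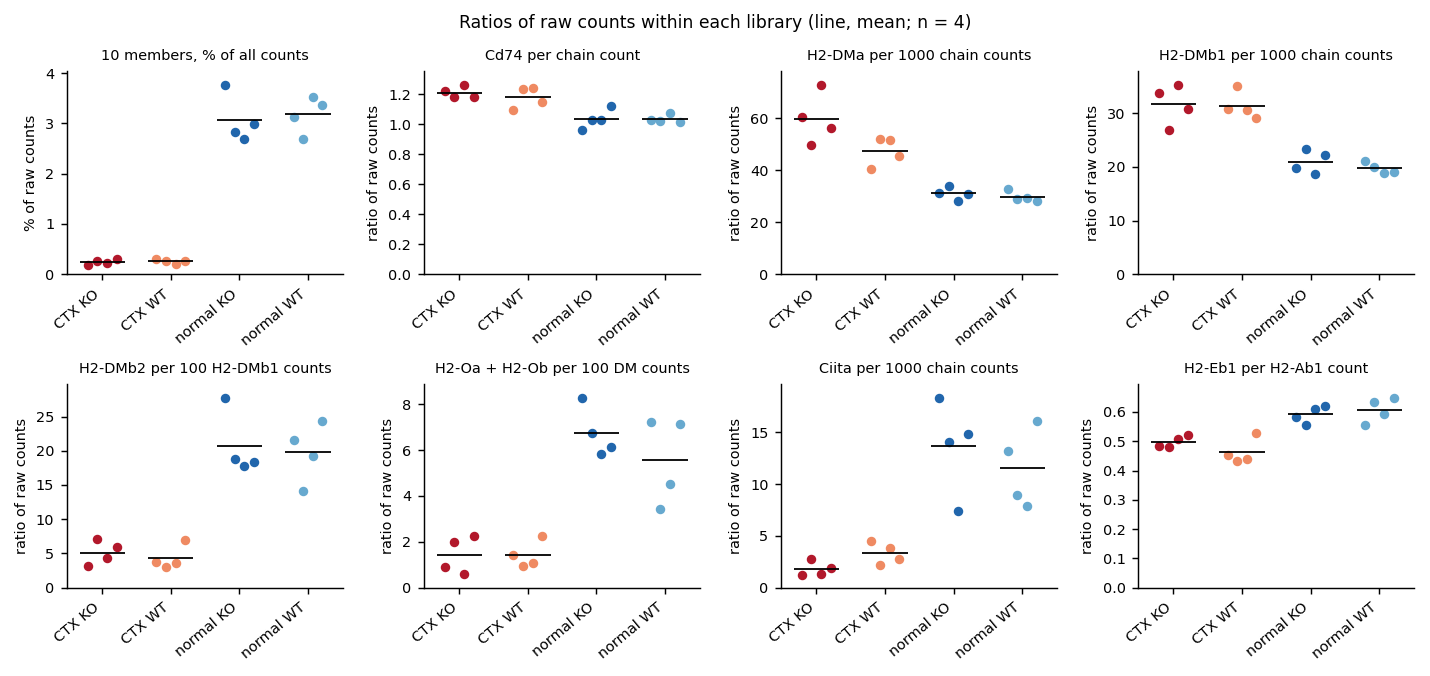
Ratios of raw counts within each library (points) with the mean of 4 libraries (line), for CTX-injected KO, CTX-injected WT, normal KO and normal WT. H2-DMa and H2-DMb1 per chain count are higher in the injured libraries, and H2-DMb2 per H2-DMb1, DO per DM, Ciita per chain count and H2-Eb1 per H2-Ab1 are lower there.

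Levels of different genes were compared per kilobase of exon. In WT normal muscle Cd74 stood at 7770.4 CPM per kb, followed by H2-Ab1 (2167), H2-Eb1 (1738), H2-Aa (954), H2-DMb1 (148), H2-DMa (109), H2-DMb2 (28.2), Ciita (15.2), H2-Oa (8.04) and H2-Ob (4.92). The libraries of H2-Ab1 and H2-Eb1 overlapped in that order, as did those of H2-DMb2 and Ciita, of Ciita and H2-Oa, and of H2-Oa and H2-Ob. KO normal muscle had the same order. The first 7 places were also the same in KO and WT CTX-injected muscle, where Cd74 stood at 898 and 1019 CPM per kb and the last 4 members at no more than 1.16 CPM per kb. The length used matters for some neighbours, since with the principal transcript in place of all exons H2-Aa stood above H2-Eb1 and H2-DMa above H2-DMb1.

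The question of whether Glud1 loss moved class II RNA was addressed within each tissue. No member differed between KO and WT in CTX-injected muscle by edgeR, where 0.00733% of all tested genes (1 gene) were called. In normal muscle 0 of 10 members were called, beside 0% of tested genes. At an unadjusted p under 0.05, 910 genes (6.67%) passed in CTX-injected and 390 (2.86%) in normal muscle. The DESeq2 Wald test called 44 genes and limma voom 112 in CTX-injected muscle, with no member among them. The median log2 difference of the members, KO over WT, was -0.21 in CTX-injected and -0.06 in normal muscle, beside -0.02 and 0.0038 over all tested genes.

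For the chains and Cd74 the data bound a genotype difference fairly closely. In CTX-injected muscle the log2 differences, KO over WT, were -0.23 for H2-Aa (95% interval -0.60 to 0.14), -0.25 for H2-Ab1 (-0.60 to 0.10), -0.14 for H2-Eb1 (-0.50 to 0.22) and -0.18 for Cd74 (-0.51 to 0.15). In normal muscle they were -0.16 for H2-Aa (-0.53 to 0.21), -0.11 for H2-Ab1 (-0.46 to 0.24), -0.15 for H2-Eb1 (-0.50 to 0.21) and -0.15 for Cd74 (-0.48 to 0.18). Same-numbered KO and WT libraries of normal muscle were taken as pairs, which is an assumption that no label states. KO was below WT in 3 of 3 pairs for H2-Aa, H2-Ab1, H2-Eb1, Cd74, H2-DMa and H2-DMb1. It was below in 2 of 3 for H2-DMb2 and Ciita and in 1 of 3 for H2-Oa and H2-Ob. The pairs leave out WT normal library 6 and KO normal library 1, the highest normal library for H2-Ab1 (6415 CPM). How many of all tested genes were below in 3 of 3 pairs was not counted, so these counts do not show a difference particular to the members. With library totals as the only scaling, H2-Ab1 and Cd74 were below in 2 of 3. With the replicate number as a block, the 6 members below in 3 of 3 pairs had log2 differences of -0.25 to -0.13 in normal muscle. Their edgeR adjusted p was 0.899 to 0.936, and none was called. The DM genes H2-DMa and H2-DMb1 had intervals of similar width, from -0.18 to 0.40 and from -0.53 to 0.07 in CTX-injected muscle. H2-DMb2, H2-Oa and H2-Ob were far less certain: in CTX-injected muscle their intervals were -0.71 to 0.83, -1.85 to 1.23 and -0.66 to 1.16. These intervals are not adjusted for the number of genes.

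Ciita had the lowest unadjusted p of the members between the genotypes, in CTX-injected muscle. Its mean was 2.34 ± 1.29 CPM in the KO and 4.87 ± 2.08 CPM in the WT libraries (SD, n = 4 each). The log2 difference was -1.05 (SE 0.44, 95% interval -1.99 to -0.12). The edgeR adjusted p over all genes was 0.682, and the groups overlapped, with KO CTX library 2 at 3.96 CPM and WT CTX library 2 at 3.29 CPM. Without WT CTX library 1, which had 7.93 CPM, the difference was -0.71. In normal muscle Ciita averaged 160.2 ± 73.4 CPM in KO and 145 ± 50.1 CPM in WT, which differ by 0.15 on the log2 scale (95% interval -0.60 to 0.89), which was -0.18 without KO normal library 1. The difference between the injury responses of the genotypes was -1.20 for Ciita (SE 0.56, edgeR adjusted p = 1), so the larger fall in KO was not shown to differ from that in WT. By edgeR that interaction was called for 0 of 10 members and 0% of tested genes, with 646 genes (4.73%) at an unadjusted p under 0.05, 48 called by the DESeq2 Wald test and 11 by limma voom. The value of H2-Oa was -0.86, and -1.47 without KO CTX library 4. The other members' interaction values ran from -0.17 to 0.18.

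Within a tissue the libraries differed in how much the members varied. Among the 8 normal libraries, the highest value was 1.38 to 1.48 times the lowest for the chains, Cd74, H2-DMa and H2-DMb1. It was 2.28 times for H2-Ob, 2.39 for H2-DMb2, 3.21 for Ciita and 7.59 for H2-Oa. KO normal library 1 was the highest of the 8 for 8 members, and WT normal library 5 was for H2-Aa and Cd74. WT normal library 3 was the lowest for H2-DMb2, H2-Oa and H2-Ob. KO normal library 2 was the lowest for H2-Aa, H2-Ab1, H2-Eb1 and Cd74, and KO normal library 3 for H2-DMa, H2-DMb1 and Ciita. Of the summed markers of other cells, KO normal library 1 was highest for dendritic cell (1348 CPM), B cell (107 CPM) and T and NK cell markers (87.9 CPM). WT normal library 3 was lowest for each (617, 29.8 and 28.4 CPM). KO normal library 2, lowest for the chains and Cd74, had sums of 935, 87.1 and 76.2 CPM for these markers. Their part in the spread of the members was not tested. Among the 8 injured libraries WT CTX library 1 was highest and KO CTX library 1 lowest for H2-Aa, H2-Ab1, H2-Eb1, Cd74, H2-DMb1 and Ciita.

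**Figure D4:**
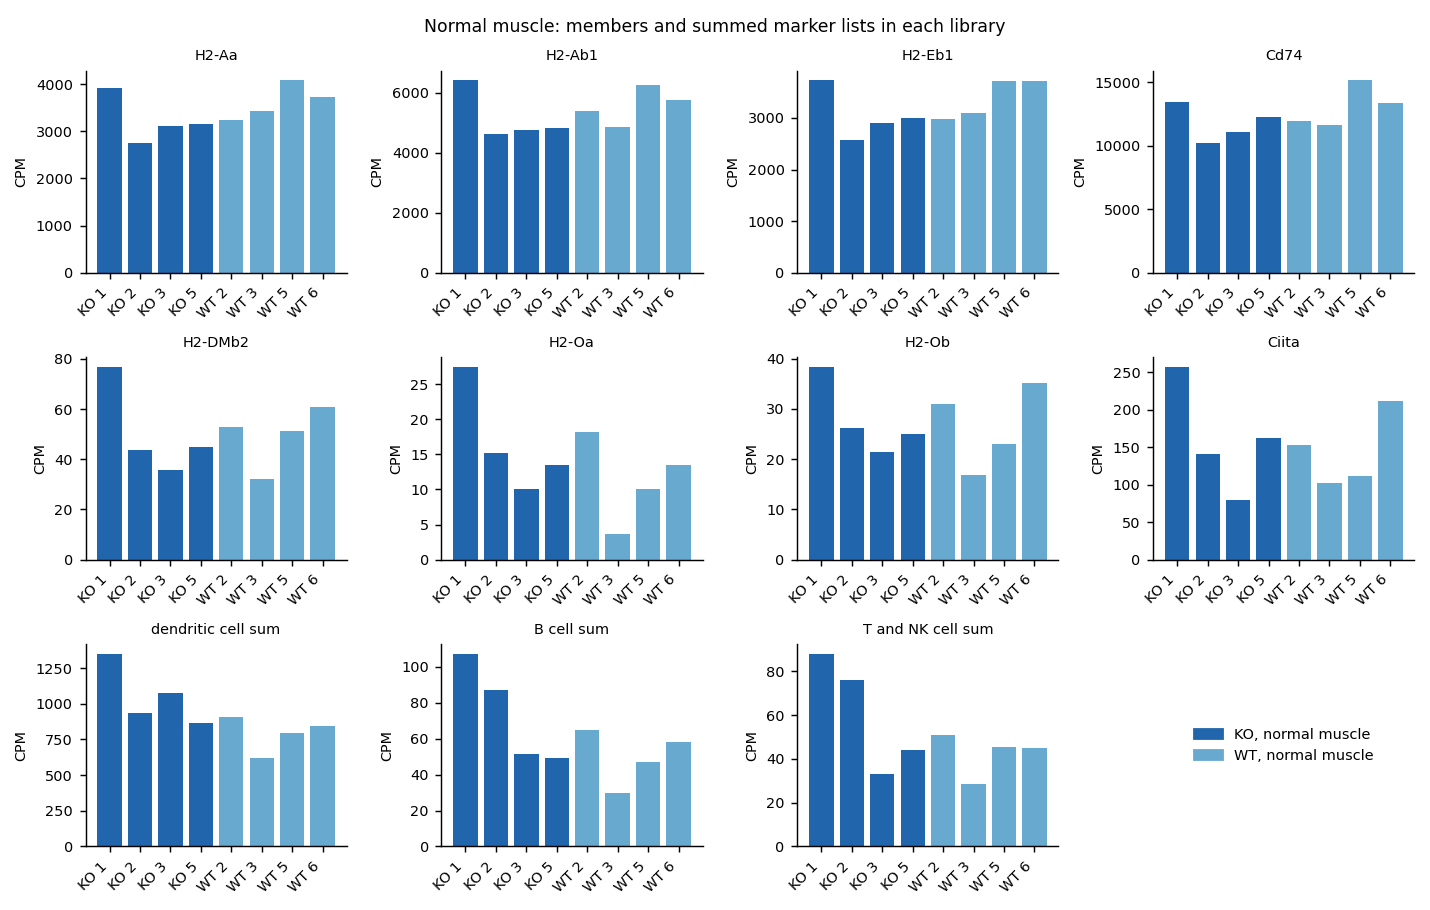
CPM of 8 members and the summed CPM of 3 marker lists in each KO and WT library of normal muscle (bars). KO library 1 has the tallest bar for H2-Ab1, H2-Eb1, H2-DMb2, H2-Oa, H2-Ob, Ciita and all 3 marker sums. WT library 3 has the shortest for H2-DMb2, H2-Oa, H2-Ob and the 3 sums. KO library 2 has the shortest for H2-Aa, H2-Ab1, H2-Eb1 and Cd74, and KO library 3 for Ciita.

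Markers of cells that carry class II constitutively were lower with injury as well. Of all tested genes, 40.2% were called lower in KO and 39.4% in WT, and 33.3% were called higher in each. Of 12 dendritic cell markers, 11 were lower and 1 higher in KO and in WT. Their median log2 change was -3.89 in KO and -3.33 in WT. With library totals as the only scaling the 1 higher marker was called in WT only, and 11 were lower in each genotype. That scaling called 61.5% of all tested genes lower in KO and 61.2% in WT. Their summed level was 101 to 170.4 CPM in KO CTX-injected against 863 to 1348 CPM in KO normal muscle, and 134 to 168 CPM in WT CTX-injected against 617 to 907 CPM in WT normal muscle. Siglech, a lectin of plasmacytoid dendritic cells, was at 1.06 ± 0.755 CPM in KO CTX-injected and 119 ± 12.8 CPM in KO normal muscle (log2 -6.79 in KO, -7.41 in WT). Cd209a, a lectin of monocyte-derived dendritic cells, had a log2 change of -5.86 in KO and -5.74 in WT. Zbtb46, a transcription factor of conventional dendritic cells, had a log2 change of -3.36 in KO and -2.91 in WT and did not reach 0 in any library. Of the 12 markers, Clec9a and Siglech had no read in 1 WT CTX library each. The part of such cells in the members' falls was not tested.

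B cell markers were lower with injury in 7 of 7 tested in KO, where 40.2% of all tested genes were called lower. In WT 6 of 7 were lower, beside 39.4% of all tested genes, and the table held 8 B cell markers. Their summed level was 8.33 to 19.4 CPM in KO CTX-injected against 49.4 to 107 CPM in KO normal muscle, and 7.08 to 15.1 CPM in WT CTX-injected against 29.8 to 64.9 CPM in WT normal muscle. Pax5, the B cell identity factor and too low to be tested, had no read in all 8 injured libraries and a read in all 8 normal ones. Cd79b, a chain of the B cell receptor complex, had a log2 change of -3.06 in KO and -3.13 in WT. Cd22, an inhibitory coreceptor, had -1.68 in WT, and Blk, a B cell kinase, -4.87. T and NK cell markers were lower for 10 of 10 in KO and 9 of 10 in WT, with sums of 4.72 to 8.05 CPM in KO CTX-injected against 32.9 to 87.9 CPM in KO normal muscle, and of 2.06 to 5.66 CPM in WT CTX-injected against 28.4 to 50.8 CPM in WT normal muscle. Cd2, an adhesion receptor, was at -2.86 in KO and -3.76 in WT, and Cd3g, a T cell receptor chain, at -5.14 and -4.05. Several B cell and T and NK cell markers had few or no reads in injured libraries. Genes that low there pass the low-count filter only through the normal libraries and can then hardly be called higher. The counts of lower markers are therefore partly set by the filter. The part of B, T and NK cells in the members' falls was not tested.

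Macrophage markers were split between the directions. Of 11, 5 were higher and 5 lower in KO, and 6 higher and 5 lower in WT. The shares over all tested genes were 33.3% higher in each genotype, 40.2% lower in KO and 39.4% lower in WT. With library totals as the only scaling, 4 of these markers were higher and 5 lower in each, where 61.5% of all tested genes were lower in KO and 61.2% in WT. Their summed level was 23284 to 27555 CPM in KO CTX-injected against 14171 to 19470 CPM in KO normal muscle, and 30780 to 37388 CPM in WT CTX-injected against 16010 to 24308 CPM in WT normal muscle. Fcgr1, the high-affinity IgG receptor, had a log2 change of 3.04 in KO and 2.68 in WT, Itgam (CD11b) of 2.04 and 1.98, and the lysosomal marker Cd68 of 1.48 and 1.37. The lower genes were Csf1r, the receptor of a macrophage growth factor (-0.79 in KO, -0.86 in WT), Mertk, a receptor for dying cells (-0.71, -1.24), and the complement genes C1qa (-1.22, -1.54), C1qb (-0.53, -0.81) and C1qc (-1.26, -1.58). Much of the summed level lay in Cd14 and Lyz2. Cd14, a coreceptor for bacterial lipids, was at 7977 ± 592 CPM in KO CTX-injected against 1514 ± 963 CPM in KO normal muscle. Lyz2, which encodes lysozyme, was at 8021 ± 922 CPM in KO CTX-injected against 6552 ± 3262 CPM in KO normal muscle and was called higher in WT but not in KO. Of 9 monocyte markers 4 were higher and none lower in each genotype, led by F10, a clotting factor gene (3.99 in KO, 4.10 in WT), Vcan (4.68, 5.03) and Chil3 (2.22, 2.88). With library totals as the only scaling, 3 monocyte markers were higher and 3 lower in each genotype.

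**Figure D5:**
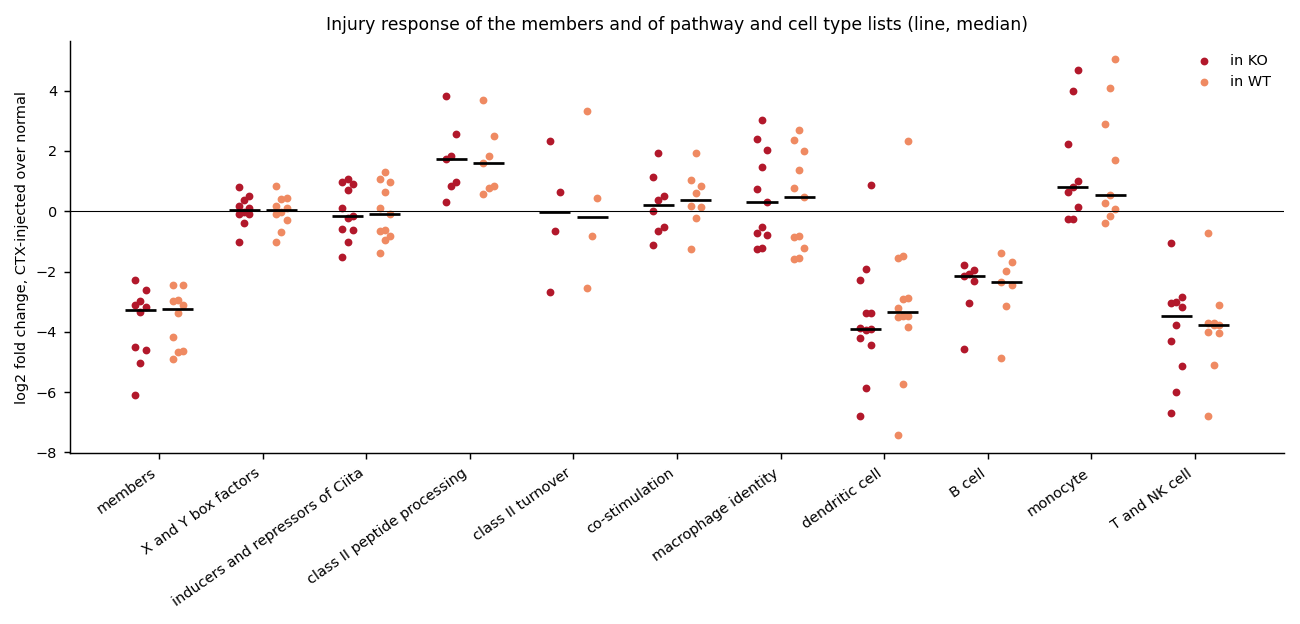
Log2 fold change of CTX-injected over normal muscle for the members and for each tested gene of the pathway and cell type lists (points), in KO and in WT, with the median of each list (line). The members, dendritic cell, B cell and T and NK cell genes lie below 0 except 1 dendritic cell gene, and the peptide processing genes lie above it.

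The factors that sit on the X and Y boxes were listed together with acetyltransferases that CIITA recruits, and this list did not fall as a whole. Its counts and median do not describe the box factors alone. Of 10 tested, 3 were higher and 1 lower in KO, and 3 higher and 2 lower in WT, with a median log2 change of 0.04 in each. Rfx5, the large subunit of the X box factor RFX, was at 9.55 ± 1.33 CPM in KO CTX-injected and 19.2 ± 3.22 CPM in KO normal muscle, a log2 change of -1.01 (edgeR adjusted p = 0.000130), and its change was -1.02 in WT. Nfyc, a subunit of the Y box factor NF-Y, was higher by 0.79 in KO, where it was not called with library totals as the only scaling (0.18), and by 0.84 in WT. Kat2b, an acetyltransferase that CIITA recruits, was at -0.39 in KO, which was not called, and at -0.69 in WT, which was. With library totals as the only scaling none was higher in KO, 1 was higher in WT and 7 were lower in each. The interferon-gamma and other inducers and repressors of Ciita were mixed, with 4 of 11 higher and 4 lower in each genotype. With library totals as the only scaling, 2 were higher in each, and 7 were lower in KO and 6 in WT. This list pools inducers with repressors, so counts by direction do not describe the control of Ciita. With TMM factors, 33.3% of all tested genes were called higher in each genotype, 40.2% lower in KO and 39.4% lower in WT. With library totals as the only scaling, 61.5% were called lower in KO and 61.2% in WT, so the counts of lower genes in these 2 lists are near that share. The interferon-gamma receptor chain genes parted, Ifngr1 being lower (log2 -1.04 in KO, -0.81 in WT) and Ifngr2 higher (0.97 in KO, 0.96 in WT), while Usf1, a factor of a Ciita promoter, was lower (-1.53 in KO, -1.38 in WT).

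Genes of peptide processing, among them proteases that cut antigen and invariant chain, went opposite to the members. All 7 genes of the peptide processing list were higher with injury in both genotypes, where 33.3% of all tested genes were called higher in each. Their median log2 change was 1.75 in KO and 1.59 in WT. With library totals as the only scaling 5 were still called higher in KO and 4 in WT. That scaling called 1920 of the 13649 tested genes higher in KO and 1944 in WT. Ctsl, a lysosomal cysteine protease, averaged 3638 ± 1060 CPM in KO CTX-injected and 257 ± 32.6 CPM in KO normal muscle (log2 3.82, SE 0.25), and its change in WT was 3.70. Ctsd, an aspartic protease, was higher by 2.55 in KO and 2.50 in WT, and Ctsb by 1.75 and 1.59. Of 4 genes that set the turnover of class II at the surface, 2 were higher and 2 lower in each genotype. Of all tested genes, 40.2% were called lower in KO and 39.4% in WT. March1, a ubiquitin ligase that removes class II from the surface, was lower (log2 -2.67 in KO, -2.56 in WT). Il10, a cytokine that induces March1, was higher (250.1 ± 21.7 CPM in KO CTX-injected against 50.3 ± 30.3 CPM in KO normal muscle, and 571 ± 275 CPM in WT CTX-injected against 56.9 ± 33.3 CPM in WT normal muscle). Cd83, which opposes March1, was lower (-0.67 in KO, -0.82 in WT).

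Co-stimulatory ligands, which act beside class II on T cells, were mixed. Of 8, 2 were higher and 1 lower in KO, and 3 higher and 1 lower in WT. Of all tested genes, 33.3% were called higher in each genotype, 40.2% lower in KO and 39.4% lower in WT. With library totals as the only scaling 2 were higher and 3 lower in KO, and 1 higher and 2 lower in WT. That scaling called 61.5% of all tested genes lower in KO and 61.2% in WT, so the change is not particular to these ligands. Cd274, the PD-1 ligand, was higher by 1.93 in KO and 1.94 in WT on the log2 scale, and Icosl had a log2 change of -1.13 in KO and -1.25 in WT. Tnfsf9 was at 0.38 in KO, which was not called, and at 1.05 in WT, which was, and with library totals as the only scaling it was at -0.23 and 0.41, neither called. No gene of these lists was called in a genotype comparison or in the interaction.

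Genes lying between the class II members on chromosome 17 moved by smaller amounts. Of the 5 protein-coding neighbours inside the span, 1 was higher and 1 lower in KO, and 1 was higher and 3 lower in WT. The shares over all tested genes were 33.3% higher in each genotype, 40.2% lower in KO and 39.4% lower in WT. Psmb9, a subunit of the immunoproteasome, had a log2 change of -0.56 in KO and -1.03 in WT, and Psmb8, another such subunit, had 0.31 and 0.06, neither called (-0.31 and -0.56 with library totals as the only scaling, the WT value called). Tap1 and Tap2, which encode the peptide transporter of class I presentation, were at -0.22 and -0.21 in KO, neither called, and at -0.81 and -0.46 in WT, both called. With library totals as the only scaling, 3 of the 5 were lower in KO and 4 in WT and none was higher. That scaling called 61.5% of all tested genes lower in KO and 61.2% in WT, so these counts are not particular to the neighbours. H2-Eb2, another class II beta gene of the region, did follow the members, at 0.367 ± 0.259 CPM in KO CTX-injected and 7.12 ± 2.41 CPM in KO normal muscle (log2 -4.24 in KO, -3.69 in WT). H2-Ea-ps, the I-E alpha locus listed as a pseudogene and too low to be tested, had no read in the 8 injured libraries and a read in all 8 normal ones. Of the other genes with an X core and Y core at that spacing, Scaper had a log2 change of -1.12 in KO and -1.43 in WT, Pfkfb1 was not called, and Bpifb4 and BC051142 were not tested.

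The profile over the 16 libraries was compared with those of 8134 other genes whose mean log2 CPM was at least 3. Predicted genes (Gm and Rik symbols) were left out of these. Likeness was the root mean square difference, in log2 units, from the mean centred profile of H2-Aa, H2-Ab1, H2-Eb1 and Cd74. The 5 most alike were Cpq (0.226), Zbtb46 (0.266), Tmem176a (0.266), Tmem176b (0.269) and Tbc1d4 (0.279). On the same measure H2-DMb1 stood at 0.324, H2-DMa at 0.425, H2-DMb2 at 0.807, H2-Ob at 0.842, H2-Oa at 1.04 and Ciita at 1.30. Placed among the other genes by this measure, H2-DMb1 would rank at 16 and Ciita at 1301. The 16 libraries share the injury difference, so this likeness is a description and carries no p.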

How the data were processed

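Per the labels' protocols, the RNA came from a Qiagen column kit and was turned into full-length cDNA by SMART-Seq V4, without strand information. The deposited values are raw read counts, 1 whole number per gene symbol and library, with no normalization by the authors. FastQC 0.11.7, cutadapt 1.18, HISAT2 2.1.0, featureCounts, Subread 1.6.2 and the mm10 build are named, with no settings, per the submitters' processing notes. The annotation used for counting and the handling of multiply mapped reads are not stated there or in the labels. Of the 24421 symbols, 5362 had no read in any library.

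From these counts, edgeR 4.0.16 (R 4.3.3) kept 13649 genes with filterByExpr, scaled libraries with TMM factors and fitted 1 coefficient per group over all 16 libraries. Its quasi-likelihood test gave 5 comparisons, adjusted over all tested genes by Benjamini-Hochberg. SE is the size of the log2 fold change divided by the root of F, and 95% intervals use the fit's degrees of freedom. Scripts were tested on simulated counts. The 10 members, the lists, the X and Y core motifs and the rule for genes named (all members, the 3 genes of smallest p of each list in the WT injury comparison, and the 5 most alike profiles) were chosen with earlier results of these data known. Genes named outside that rule (Glud1, Xist, Adgre1, Csf1r, Lyz2, Cd14, Mertk, C1qa, C1qb, C1qc, Pax5, Clec9a, the neighbouring, overlapping and motif-sharing genes) serve as checks or were named after their values were seen. Promoter windows came from RefSeq (GRCm38.p6), with 7 members matched and searched, and gene coordinates from GENCODE M21, where 23376 symbols matched a name. Amplified reads carry no molecular identifiers. Same-numbered KO and WT libraries of normal muscle deviated together from their group means (r of 0.64, 0.57 and 0.24 for numbers 2, 3 and 5). These numbers were taken to pair them, which is an assumption. Libraries of different numbers were not correlated, so these r values cannot tell a pairing from variation shared by normal libraries in general. By Xist, both libraries of number 5 came from female mice. In CTX-injected muscle the correlations of same-numbered KO and WT libraries were -0.12 to 0.0046. Alternatives were RLE factors, library totals only, DESeq2 1.42.0, limma 3.58.1 voom with quality weights, no low-count filter, fits on the compared groups only, male libraries only, the replicate number as a block, and leaving out each library.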

Additional observations from a re-analysis of the deposited data

Results flagged for a closer look

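H2-Ab1 in KO normal muscle had 1 library apart from the other 3. KO normal library 1 was at 6415 CPM, against 4632 to 4811 CPM in libraries 2, 3 and 5, and its gap to the nearest of them was 0.90 of the group's whole range. The limit for 4 samples is 0.829. Of 40 groups of a member's values examined this was the only one past the limit, where chance alone passes it in about 1 group in 20. The same library had the highest summed dendritic cell, B cell and T and NK cell markers of normal muscle, and their part in its H2-Ab1 level was not tested.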

How the results depend on the processing

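All 10 members stayed lower with injury in KO and in WT, and none was called in the genotype comparisons or the interaction, under every alternative run, and leaving out single libraries gave 10 to 10 and 0 to 0 calls. Every one of the 870 member values recomputed kept its side of the threshold. The replicate number as a block rests on the pairing assumed for normal muscle only. With it, 10 members were lower in both injury comparisons and 0 were called elsewhere, and the block changed no member's call. The block moved the log2 change of H2-Oa to -5.63 in KO and -4.77 in WT. Library totals as the only scaling deepened every injury fall by 1.52 to 1.55 times. Counts over all genes were less stable: KO against WT in CTX-injected muscle gave 1 gene, against 44 by DESeq2, 112 by limma voom, 3 with only the compared groups, 2 with male libraries, 4 with the block and 2 without KO CTX library 2. The interaction gave 0 genes, against 48 by DESeq2, 11 by limma voom, 1 with male libraries, and 2 without KO CTX library 2 or KO normal library 5. The cause was not tested. Several uncalled genotype differences turned sign without 1 library, such as H2-DMb2 (-0.25) and H2-Ob (-0.12) in normal muscle without KO normal library 1. Depth limits H2-Oa most, with as few as 1 count in an injured library. Amplified reads are not independent molecules.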
